A study of Oryza sativa with 6 samples.

Results

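Heat shock protein genes and heat shock factor genes were followed in rice seedlings treated with an auxin or a cytokinin. A gene was taken when its symbol or a synonym in the RefSeq gene table of a japonica assembly began, after a leading Os was dropped, with HSP and a number or with HSFA, HSFB or HSFC. The table held 49 such genes. Of these, 43 were paired with at least 1 probe set of their own, out of 17905 genes so paired in all, and the brightest probe set stood for each gene. They comprised 23 heat shock protein genes and 20 heat shock factor genes. The heat shock protein genes were 19 small heat shock protein genes, 3 HSP90 genes (HSP81-1, HSP81-2 and HSP81-3) and the HSP100 gene HSP101, also named CLPB1. The factor genes fell into 12 of class A, 5 of class B and 3 of class C. By name no HSP70, HSP60 or HSP40 gene was among the matches. HSP16.9C, HSP18.9, HSP19.0, HSFA6A, HSFB4C and HSFC2B had no probe set paired with them alone and were not analysed here. HSP21.9 and HSP26.7 were too dim to be tested, so 41 genes were tested.

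The seedlings were 7 days old, of the indica variety IR64, grown in a cycle of 14 h light and 10 h dark at 28 °C. They stood in 50 µM indole-3-acetic acid (IAA, an auxin), in 50 µM benzyl aminopurine (BAP, a cytokinin), or, as the control, were mock-treated with dimethyl sulfoxide at 0.1%. The solvent content of the IAA and BAP samples was not given, so whether the control matched them in solvent is not known. Tissue collected at 1 h and 3 h was pooled in equal amounts for every sample, so early and later responses cannot be told apart, and whole seedlings were used, so fewer cells of a type and less RNA per cell cannot be told apart either. Each group held 2 samples, called biological replicates in the series design, and each sample was read on 1 Affymetrix rice array.

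Heat shock proteins are chaperones: they keep other proteins folded, refold them after damage, or pull them out of aggregates. HSP90 proteins help signalling proteins reach their active shape, and in Arabidopsis the auxin receptor TIR1 is among the proteins they stabilise. Small heat shock proteins hold unfolding proteins in a soluble state, and HSP100 proteins, working with HSP70, take aggregates apart. Heat shock factors are the transcription factors that bind heat shock elements in the promoters of these genes. Class A factors carry an activating domain, whereas class B factors lack it and mostly repress or assist. Several factor genes are themselves heat-inducible, so factors and chaperones form a loop.

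Values are intensities after quantile normalization, and changes are differences of log2(intensity + 16), a scale that understates the change of dim genes. Differences between groups were tested with limma across 34316 probe sets, and a gene was called at a Benjamini-Hochberg adjusted p under 0.05. With 2 arrays a group, precision is low throughout. As a check of the labels, the auxin-induced repressor gene IAA9 read 2739 and 2778 on the IAA arrays, against 243 and 209.8 on the control arrays, and the cytokinin-induced regulator gene RR9 read 2055 and 1909 on the BAP arrays, against 237 and 306 on the control arrays. Neither gene's groups overlapped. The light-harvesting genes CAB2R and LHCP and the root silicon channel gene LSI1 were bright on all 6 arrays. LSI1 read 1868 and 1911 on the BAP arrays, against 3744 and 3309 on the control arrays, and 2 of 4 tested root markers were called lower with BAP in limma, against 0 of 7 green leaf markers. On the IAA arrays LSI1 read 2487 and 2698, also below both control arrays (log2 change -0.44, limma adjusted p = 0.0957). With IAA the log2 change was -0.68 for the root silicon exporter gene LSI2 and 0.45 for PIN3A, and 0 of the 4 root markers were called, with 2 lower and 1 higher at an unadjusted p under 0.05. The part of tissue makeup in the IAA and BAP values was not tested. IAA and control arrays were run on 1 day and both BAP arrays on another, so BAP and run day cannot be told apart.

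IAA array 1 stood apart from IAA array 2 in a part of the heat shock genes, and this bears on every IAA value below. Of the 41 tested genes, 7 were at least 2-fold lower on IAA array 1 than on IAA array 2 (HSP16.0, HSP24.1, HSP18.1, HSFA2A, HSFB2A, HSFB2B and HSFB2C), whereas 0.947% of all tested probe sets were. When all 16464 genes with a tested probe set were ranked by this difference, 6 heat shock genes lay within the 13 lowest ranks. Other genes lay there too, among them RAB21 at rank 3, with 115 and 418 on the IAA arrays, and RAB16B at rank 12. RAB16D followed at rank 14, so low values on IAA array 1 were not particular to heat shock genes. Between the BAP arrays 1 heat shock gene (HSFA2A) was at least 2-fold lower on array 1, against 0.734% of all tested probe sets. Between the control arrays 0 heat shock genes were, against 0.393%. In the opposite direction HSP23.2 was at least 2-fold higher on IAA array 1 (0.842% of all tested probe sets), 0 genes on BAP array 1 (0.828%), and HSP16.9A and HSP23.2 on control array 1 (0.609%). Array 1 was below array 2, by any amount, in 23 of the 41 genes with IAA, 27 with BAP and 26 in the control, against 49.1%, 50.9% and 51.0% of all tested probe sets. The 2 IAA arrays otherwise correlated across tested probe sets at r = 0.983, the same as the BAP arrays at 0.983 and below the control arrays at 0.988. These correlations are over probe sets, which are not independent replicates.

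**Figure D1:**
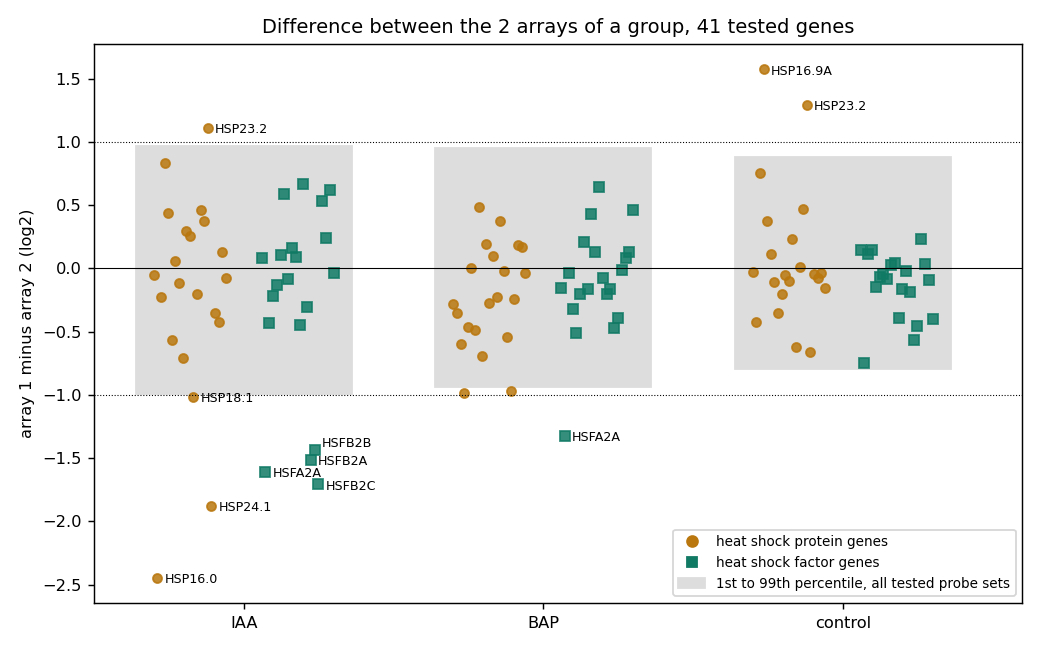
Difference between the 2 arrays of each group (array 1 minus array 2, log2, vertical axis) for the 41 tested genes, with heat shock protein genes as circles and heat shock factor genes as squares; grey boxes span the 1st to the 99th percentile of all 34316 tested probe sets, and genes beyond a 2-fold difference are named. In the IAA group 7 genes lie below the dotted line at -1, down to -2.44 for HSP16.0.

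IAA array 1 was also the lowest of the 6 arrays in 13 of the 41 genes, while 18.7% of all tested probe sets had their lowest value there. For 14 of the 41 genes array 1 lay below array 2 in the IAA, the BAP and the control group alike, against 13.0% of all tested probe sets. Among those 14 were 6 of the 7 genes above, HSP18.1 being the exception. Fluidics module moved with this pattern, since arrays numbered 1 sat on module 1 (control) or 3 (IAA and BAP) and arrays numbered 2 on module 2 (control) or 4 (IAA and BAP). Its part in the result was not tested. Control arrays sat on modules 1 and 2 and all hormone arrays on 3 and 4, so module and hormone against control cannot be told apart. Across all tested probe sets the deviations of same-numbered arrays from their group means correlated at no more than 0.0264 between groups.

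The first comparison asked which heat shock genes differed with IAA from the control. HSP81-1 alone was called, and it fell. Of the 41 genes, 0 were called higher and 1 lower, against 0.632% and 0.219% of all tested probe sets (0.851% in either direction). The 21 tested heat shock protein genes had a median log2 change of -0.18, with 16 below 0 and 5 above. The 20 factor genes had a median of 0.08, with 8 below 0 and 12 above. Over all tested probe sets the median was -0.01. Both IAA arrays lay below both control arrays in 10 of the 21 heat shock protein genes and above them in 1. For the factor genes the counts were 3 below and 9 above, of 20. HSFA2D counted as above by its brightest probe set, but its other probe set lay below. Over all tested probe sets, 22.9% lay below and 21.1% above. In limma 9 of the 41 genes had an unadjusted p under 0.05 and a lower value with IAA, and 2 a higher one, against 5.6% and 5.25% of all tested probe sets.

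The HSP90 genes are abundant housekeeping and stress chaperone genes. HSP81-1 (LOC4345951) read 2632 and 3531 on the IAA arrays, against 4919 and 5183 on the control arrays. Both IAA arrays were below both control arrays, and the means were 3082 ± 636 with IAA and 5051 ± 187 in the control (SD, n = 2 arrays each). The log2 change was -0.72 (SE 0.13, limma adjusted p = 0.0487), a fold of 0.605. The call was lost without IAA array 1, where the log2 change was -0.51 (limma adjusted p = 0.181), and held without IAA array 2, at -0.93 (adjusted p = 0.0235). In limma it was also lost without either control array or either BAP array, with adjusted p between 0.0676 and 0.254.

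A second, dimmer probe set of HSP81-1 read 753 and 1617 on the IAA arrays, against 2140 and 2110 on the control arrays. Its log2 change was larger, at -0.93, but IAA array 1 differed from IAA array 2 by -1.09 on the log2 scale and limma gave an adjusted p of 0.31. Thus both probe sets of this gene placed both IAA arrays below both control arrays. HSP81-2 (LOC4347402) read 4604 and 4201 on the IAA arrays, against 5146 and 5276 on the control arrays, with a log2 change of -0.24 (SE 0.09, limma adjusted p = 0.355). HSP81-3 (LOC4347405), which lies close to HSP81-2 with 2 protein-coding genes between them, read 5787 and 6087 on the IAA arrays, against 5643 and 6270 on the control arrays. The IAA and control arrays of HSP81-3 overlapped. This brightest probe set is of the kind that can match several transcripts, so its value for HSP81-3 is uncertain. The 3 other tested probe sets of HSP81-3 each had both IAA arrays below both control arrays, with log2 changes of -0.33, -0.33 and -0.13, and none was called. One of them, also of a cross-matching kind, read 3219 and 3305 on the IAA arrays, against 3547 and 3580 on the control arrays. Another read 1109 and 1078 on the IAA arrays, against 1346 and 1406 on the control arrays (limma adjusted p = 0.273).

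**Figure D2:**
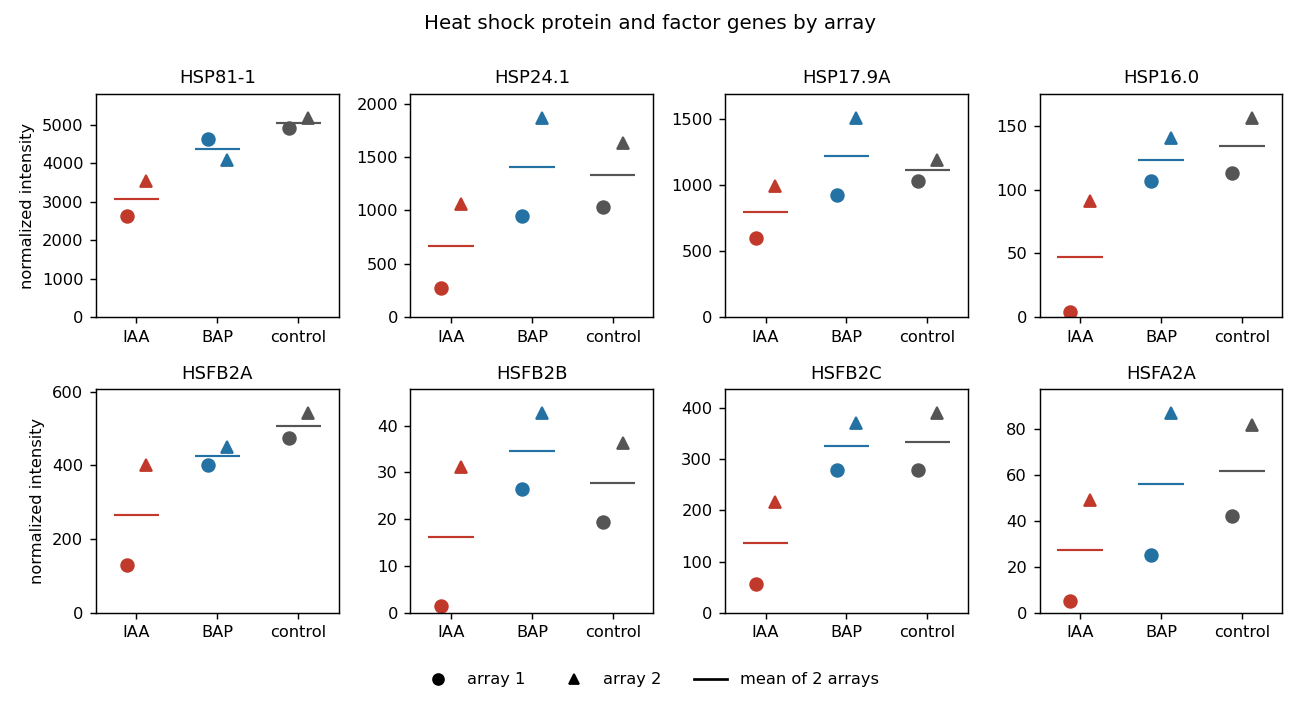
Normalized intensity (vertical axis, linear and starting at 0) of 8 heat shock genes on each array, with IAA, BAP and control from left to right, array 1 as a circle, array 2 as a triangle and the mean of the 2 arrays as a line. In all 8 genes the IAA array 1 circle is the lowest of the 6 points, at 278 for HSP24.1 against 945 to 1868 on the BAP and control arrays. The 8 are not a random draw: they are among the 13 of 41 tested genes with their lowest value on that array.

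Among the 17 tested small heat shock protein genes 0 were called with IAA in limma, and 4 had an unadjusted p under 0.05, all with a lower value, against 5.6% of all tested probe sets. The largest differences were in HSP16.0 and HSP24.1. HSP16.0 (LOC4340661) read 3.73 and 91.4 on the IAA arrays, against 113 and 157 on the control arrays. IAA array 1 was close to 0 while IAA array 2 was just under the lower control array. The log2 change was -1.70 (SE 0.61, limma adjusted p = 0.332). In limma without IAA array 1 it was -0.47 (adjusted p = 0.589), and without IAA array 2 it was -2.91 (adjusted p = 0.00662).

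HSP24.1 (LOC4330786) read 278 and 1064 on the IAA arrays, against 1027 and 1635 on the control arrays. Only IAA array 1 was below the control arrays, so the groups overlapped. The log2 change was -1.22 (SE 0.53, limma adjusted p = 0.449), and -0.28 (adjusted p = 0.863) without IAA array 1. In limma it was -2.16 (adjusted p = 0.0774) without IAA array 2.

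A run of small heat shock protein genes, HSP17.9A, HSP17.4, HSP18.1 and HSP17.7, lies together in the japonica gene order, with 4 genes between the first pair and none between the others. HSP17.4 (LOC4332360) read 116 and 178.5 on the IAA arrays, against 253 and 233 on the control arrays, so the groups did not overlap (log2 change -0.69, SE 0.19, limma adjusted p = 0.186). HSP17.9A (LOC4332357) read 601 and 991 on the IAA arrays, against 1034 and 1191 on the control arrays. Its groups did not overlap either (log2 change -0.51, SE 0.26, limma adjusted p = 0.524). HSP17.7 read 364 and 349 on the IAA arrays, against 419 and 452 on the control arrays, a further gene without overlap. HSP18.1 behaved otherwise: it read 95.6 and 210.0 on the IAA arrays, against 129 and 107 on the control arrays. IAA array 1 was thus below and IAA array 2 above both control arrays. The probes of HSP18.1, like those of HSFA2A, can also match related transcripts.

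HSP18.8 (LOC4343386), whose probes can also match related transcripts, was lower on IAA array 2 than on IAA array 1. It read 2107 and 1523 on the IAA arrays, against 2641 and 2619 on the control arrays. The groups did not overlap, and the log2 change was -0.55 (SE 0.16, limma adjusted p = 0.23). In limma it was -0.78 (adjusted p = 0.138) without IAA array 1.

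The second run of neighbouring small heat shock protein genes, HSP16.6, HSP17.9B, HSP16.9C, HSP16.9A and HSP16.9B, has no other protein-coding gene between them. HSP17.9B (LOC4325695) read 2578 and 2096 on the IAA arrays, against 2002 and 2081 on the control arrays, and was the one heat shock protein gene with both IAA arrays above both control arrays (log2 change 0.19, SE 0.12). HSP16.9A read 421 and 228 on the IAA arrays, against 457 and 143 on the control arrays. Its replicates differed by more than its groups in both cases. HSP16.6 and HSP16.9B were dim, at most 29.6 and 36.6 on any array. The copies are close relatives whose probes can share signal. The remaining small heat shock protein genes, HSP17.8, HSP18.0, HSP18.6, HSP22.3, HSP23.2 and HSP26.2, had log2 changes between -0.54 and 0.05 with IAA. The lowest was that of HSP18.6, by a probe set that can match several transcripts, and its other tested probe set gave 0.03. HSP101, the disaggregase gene, read 68.7 and 71.9 on the IAA arrays, against 72.6 and 74.6 on the control arrays (log2 change -0.05, SE 0.17).

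The lowest log2 changes with IAA among the factor genes were those of the class B genes HSFB2C and HSFB2A, and by their brightest probe sets both were much lower on IAA array 1 than on IAA array 2. HSFB2C (LOC4347637) read 55.4 and 217 on the IAA arrays, against 279.7 and 389.8 on the control arrays. Both IAA arrays were below both control arrays, by a log2 difference from the control mean of -2.28 on array 1 and -0.57 on array 2. The log2 change was -1.43 (SE 0.44, limma adjusted p = 0.251). In limma it was -0.57 (adjusted p = 0.486) without IAA array 1 and -2.26 (adjusted p = 0.0157) without IAA array 2.

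HSFB2A (LOC4336701) read 129.7 and 400.3 on the IAA arrays, against 473 and 541 on the control arrays. The groups did not overlap, with a log2 change of -1.08 (SE 0.38, limma adjusted p = 0.316). In limma without IAA array 1 it was -0.32 (adjusted p = 0.552), and without IAA array 2 it was -1.83 (adjusted p = 0.00649). HSFB2B (LOC4346229) read 1.42 and 31.2 on the IAA arrays, against 19.4 and 36.3 on the control arrays. Here IAA array 2 lay within the range of the control arrays, and the log2 change of -0.58 (SE 0.43, limma adjusted p = 0.701) became 0.14 without IAA array 1.

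The other class B genes were not at least 2-fold lower on IAA array 1 than on IAA array 2. HSFB4B read 149 and 98.2 on the IAA arrays, against 197 and 165 on the control arrays, with the lower IAA value on array 2. Its groups did not overlap (log2 change -0.52, SE 0.19, limma adjusted p = 0.363). HSFB1 read 437 and 545 on the IAA arrays, against 450 and 457 on the control arrays, and the groups overlapped. The median log2 change of the 5 class B genes was -0.59 with all arrays, -0.32 without IAA array 1 and -1.30 without IAA array 2.

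**Figure D3:**
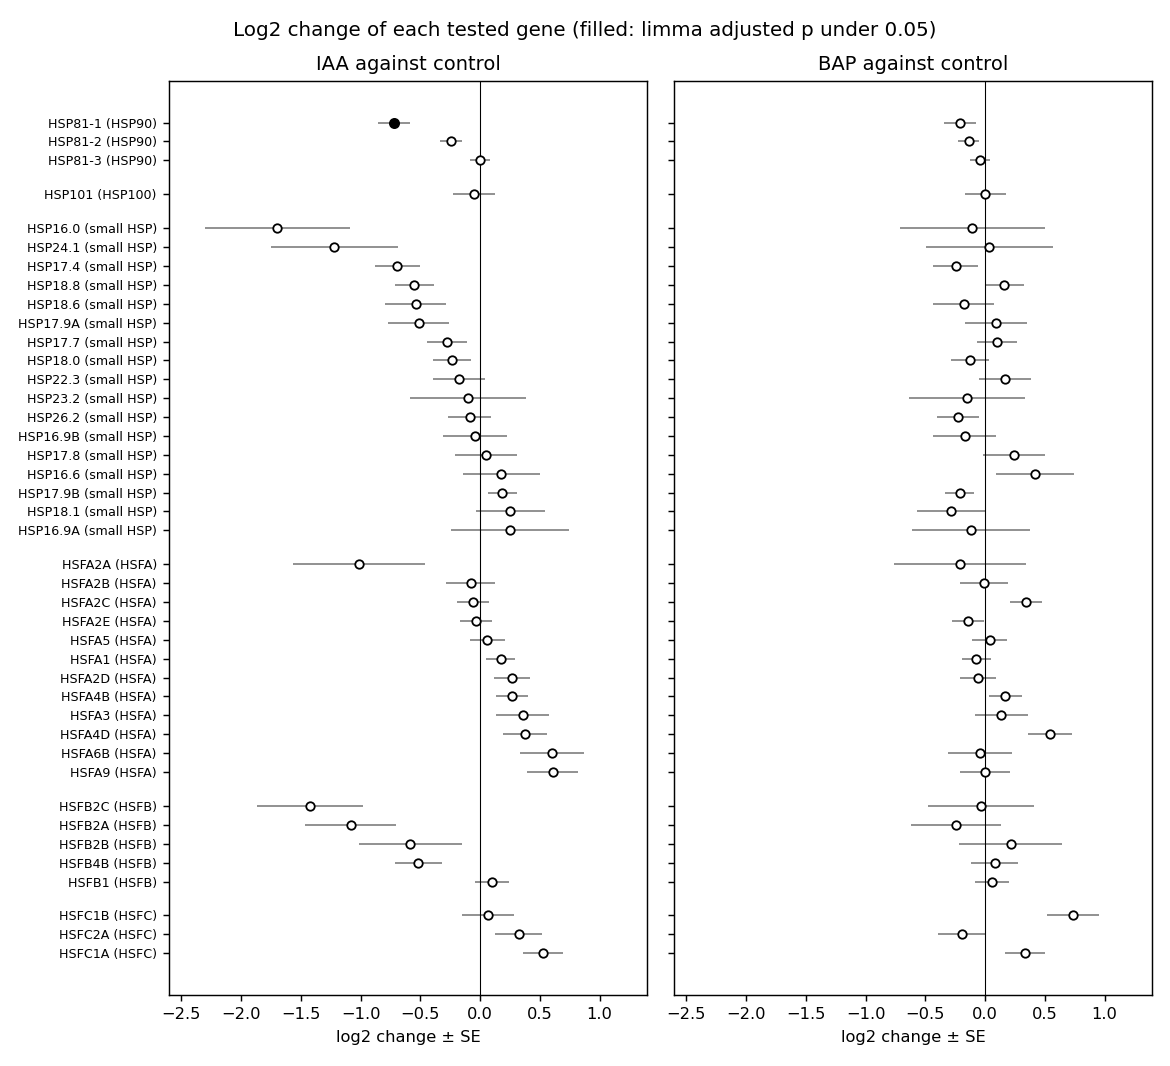
Log2 change ± SE (horizontal axis) of the 41 tested genes with IAA (left) and BAP (right) against the control, grouped by class and ordered by the IAA value, with filled points for a limma adjusted p under 0.05. HSP81-1 with IAA, at -0.72, is the one filled point; the widest error bars belong to HSP16.0, HSFA2A and HSP24.1.

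Of the 12 class A factor genes 0 were called in limma with IAA, and 1 had an unadjusted p under 0.05. The median log2 change was 0.22, with 8 genes above 0 and 7 with both IAA arrays above both control arrays, against 21.1% of all tested probe sets. HSFA2D was among these 7 by its brightest probe set, whereas its other probe set had both IAA arrays below both control arrays. HSFA9 (LOC4332113), a gene whose relatives in Arabidopsis and sunflower act in seed maturation, read 284 and 172 on the IAA arrays, against 132 and 149 on the control arrays (log2 change 0.61, SE 0.21, limma adjusted p = 0.317). HSFA6B (LOC4326351) read 67.6 and 98.01 on the IAA arrays, against 40.4 and 57.8 on the control arrays (log2 change 0.60, SE 0.27, limma adjusted p = 0.465). Both genes had groups without overlap and differed between the IAA arrays as well. HSFA4D (LOC4339409), known in rice as the spotted-leaf gene SPL7, read 120 and 106 on the IAA arrays, against 84.5 and 82.4 on the control arrays (log2 change 0.38, SE 0.18, limma adjusted p = 0.514). HSFA3 read 95.0 and 57.8 on the IAA arrays, against 53.5 and 55.8 on the control arrays (log2 change 0.36, SE 0.22, limma adjusted p = 0.632). HSFA1, whose relatives in tomato and Arabidopsis start the heat response, read 664 and 624 on the IAA arrays, against 599 and 541 on the control arrays (log2 change 0.17, SE 0.12, limma adjusted p = 0.683).

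HSFA2A (LOC4334080), a heat-inducible factor gene, was the class A gene with the lowest IAA value. It read 5.34 and 48.99 on the IAA arrays, against 42.1 and 81.6 on the control arrays. IAA array 2 lay between the control arrays. The log2 change was -1.01 (SE 0.55, limma adjusted p = 0.565), and -0.21 without IAA array 1. HSFA2B, HSFA2C, HSFA2D, HSFA2E, HSFA4B and HSFA5 had log2 changes between -0.08 and 0.27. Of the 3 class C genes, HSFC1A (LOC4326685) read 118 and 96.8 on the IAA arrays, against 70.4 and 68.3 on the control arrays. Its groups did not overlap (log2 change 0.52, SE 0.17, limma adjusted p = 0.261). HSFC2A had a log2 change of 0.32 and HSFC1B one of 0.07.

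The choice of probe set mattered for HSFA2C and HSFA2D. Both table entries also carry synonyms of acireductone dioxygenase (ARD), an enzyme of methionine recycling, and the tables do not settle which of the transcripts each probe set reads. The brightest probe set of HSFA2C (LOC4348646) read 1189 and 1385 on the IAA arrays, against 1405 and 1270 on the control arrays. Its dimmer probe set read 44.6 and 136 on the IAA arrays, against 146 and 177 on the control arrays. The brightest probe set of HSFA2D (LOC4331707) read 4222 and 4621 on the IAA arrays, against 3485 and 3865 on the control arrays. Its dimmer probe set read 17.5 and 61.2 on the IAA arrays, against 65.7 and 68.8 on the control arrays. In both genes the dimmer probe set had IAA array 1 lowest of the 6 arrays, with a log2 difference from IAA array 2 of -1.33 in HSFA2C and -1.202 in HSFA2D. In the brightest these differences were -0.22 and -0.13. The dimmer probe sets had log2 changes of -0.88 and -0.71 with IAA (limma adjusted p = 0.487 and 0.488).

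Other genes with several probe sets differed in whether these gave the same array order. In the 3 probe sets of HSFB2C the log2 difference of IAA array 1 from IAA array 2 was -1.71, -1.73 and -1.45. In HSFB2A it was -1.51 for the first probe set and -0.36 for the second. The second read 51.1 and 70.3 on the IAA arrays, against 120 and 155 on the control arrays, so there both IAA arrays were well below the control arrays (log2 change -1.003, limma adjusted p = 0.0742). In HSFB4B the log2 difference of IAA array 1 from IAA array 2 was 0.53 for the brightest probe set and -0.39 for the other. The other probe sets of HSFA2A were dim, at most 24.0 on any array, and did not repeat the low value of IAA array 1.

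**Figure D4:**
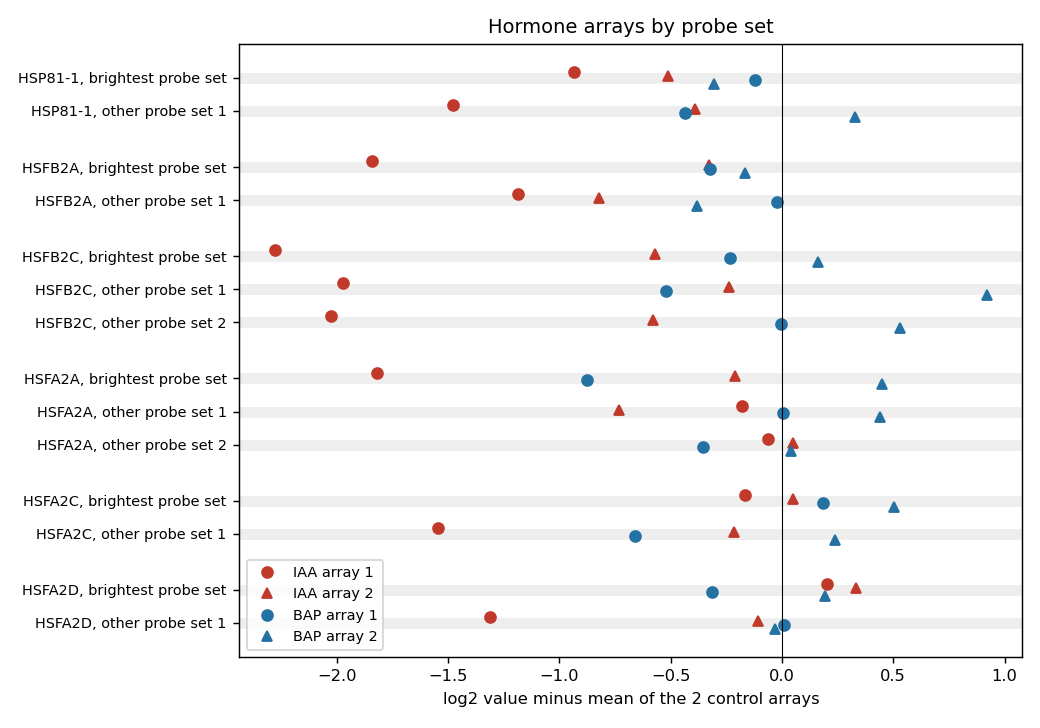
Log2 value minus the mean of the 2 control arrays (horizontal axis) on the IAA arrays (red) and BAP arrays (blue), with array 1 as circles and array 2 as triangles, for each tested probe set of 6 genes. IAA array 1 lies at -1.55 and -1.31 in the dimmer probe sets of HSFA2C and HSFA2D and at -0.17 and 0.20 in their brightest ones.

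The second comparison asked which heat shock genes differed with BAP from the control. In limma 0 of the 41 genes were called, against 0.274% of all tested probe sets (0.21% higher and 0.0641% lower), and 3 had an unadjusted p under 0.05, all with a higher value. At that threshold 4.09% of all tested probe sets were higher and 3.48% lower. The heat shock protein genes had a median log2 change of -0.12 and the factor genes one of 0.02, against -0.01 over all tested probe sets. Without BAP array 1 the heat shock protein median was 0.01, and without BAP array 2 it was -0.19. Both BAP arrays lay below both control arrays in 8 of the 41 genes and above them in 6, against 19.9% and 17.8% of all tested probe sets.

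The largest difference was in HSFC1B (LOC4324158), which read 127 and 115 on the BAP arrays, against 63.3 and 68.6 on the control arrays. The groups did not overlap, and the means were 121 ± 8.79 with BAP and 66.0 ± 3.78 in the control (SD, n = 2 arrays each). The log2 change was 0.74 (SE 0.22, limma adjusted p = 0.35). HSFA4D read 152 and 109 on the BAP arrays, against 84.5 and 82.4 on the control arrays (log2 change 0.54, SE 0.18, limma adjusted p = 0.463). HSFC1A read 94.7 and 88.6 on the BAP arrays, against 70.4 and 68.3 on the control arrays (log2 change 0.33, SE 0.17, limma adjusted p = 0.736). In HSFA4D and HSFC1A both BAP arrays and both IAA arrays were above both control arrays. The comparisons share the control arrays.

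HSFA2C by its brightest probe set read 1520 and 1897 on the BAP arrays, against 1405 and 1270 on the control arrays (log2 change 0.34, SE 0.13, limma adjusted p = 0.574). Its dimmer probe set had a log2 change of -0.21, so the direction depended on the probe set. HSP16.6 had the highest value among the heat shock protein genes, at 0.42, with intensities of 14.1 and 29.6 on the BAP arrays, against 20.1 and 5.39 on the control arrays. These overlapped. The lowest log2 changes were -0.29 for HSP18.1, -0.25 for HSP17.4, -0.24 for HSFB2A, -0.23 for HSP26.2 and -0.21 for HSP81-1, with limma adjusted p between 0.839 and 0.952. HSP81-1 read 4641 and 4088 on the BAP arrays, against 4919 and 5183 on the control arrays. HSP18.1 read 97.2 and 89.5 on the BAP arrays, against 129 and 107 on the control arrays. HSP17.4 read 203 and 202 on the BAP arrays, against 253 and 233 on the control arrays. The groups of these 3 genes did not overlap, although none passed the test.

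Of the 7 genes at least 2-fold lower on IAA array 1, HSP18.1 and HSFB2A had both BAP arrays below both control arrays, and the other 5 overlapped with the control. HSFB2A read 401 and 450 on the BAP arrays, against 473 and 541 on the control arrays. HSP16.0 read 107 and 140 on the BAP arrays, against 113 and 157 on the control arrays. HSFB2C read 279 and 371 on the BAP arrays, against 279.7 and 389.8 on the control arrays. HSP24.1 read 945 and 1868 on the BAP arrays, against 1027 and 1635 on the control arrays, with BAP array 1 below and BAP array 2 above both control arrays. HSFA2A read 25.1 and 86.8 on the BAP arrays, against 42.1 and 81.6 on the control arrays, again on either side.

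The direct comparison of BAP with IAA is the test of whether the hormones differed from each other. In limma 0 of the 41 genes were called, against 2.24% of all tested probe sets (1.11% higher and 1.13% lower). At an unadjusted p under 0.05, 11 genes were higher with BAP and 4 lower, against 6.53% and 6.16% of all tested probe sets. The heat shock protein genes had a median log2 difference of 0.19 and the factor genes one of -0.03, against -0.00 over all tested probe sets. Both BAP arrays were above both IAA arrays in 12 of the 41 genes and below them in 7, against 19.7% and 19.5% of all tested probe sets.

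HSP18.8 had the smallest adjusted p among the heat shock genes, for which it is described outside the rule for named genes. It read 3343 and 2578 on the BAP arrays, against 2107 and 1523 on the IAA arrays, without overlap (log2 difference 0.71, SE 0.16, limma adjusted p = 0.0678). HSP18.8 passed in limma with the replicate number as a block (adjusted p = 0.0255) and with no rescaling (adjusted p = 0.00864). It was not called in the main setting or in any other setting that left out no array. Without IAA array 1 its log2 difference was 0.94. HSP81-1 read 4641 and 4088 on the BAP arrays, against 2632 and 3531 on the IAA arrays (log2 difference 0.51, SE 0.13, limma adjusted p = 0.105). In limma it passed without IAA array 2, at 0.72 (adjusted p = 0.0316).

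The largest differences were 1.59 for HSP16.0, 1.39 for HSFB2C, 1.26 for HSP24.1, 0.84 for HSFB2A and 0.80 for HSFA2A, with limma adjusted p between 0.201 and 0.629. Without IAA array 1 these were 0.36, 0.54, 0.32, 0.08 and -0.00, with limma adjusted p of at least 0.444. Without IAA array 2 they were 2.80, 2.23, 2.19, 1.59 and 1.60, and the first 4 genes then passed, with adjusted p between 0.00464 and 0.0495. With the replicate number as a block HSP24.1 had an adjusted p of 0.0392. On the lower side stood HSFA6B at -0.64, HSFA9 at -0.61, HSP18.1 at -0.54, HSFC2A at -0.52 and HSP17.9B at -0.40, with limma adjusted p between 0.173 and 0.4995. HSFA9 read 136 and 144 on the BAP arrays, against 284 and 172 on the IAA arrays. HSFA6B read 62.4 and 34.0 on the BAP arrays, against 67.6 and 98.01 on the IAA arrays. HSFC2A read 192 and 135 on the BAP arrays, against 234 and 241 on the IAA arrays. Those 3 genes had both BAP arrays below both IAA arrays.

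Other folding genes were taken as lists by name. Of 17 tested genes of folding in the endoplasmic reticulum (BiP chaperones, protein disulfide isomerases, calreticulin and sensors of unfolded protein), 0 were called against the control with IAA or BAP in limma. With IAA 6 had an unadjusted p under 0.05, all with a lower value (5.6% of all tested probe sets), and with BAP 1, with a higher value (4.09%). Their median log2 change with IAA was -0.14, and both IAA arrays were below both control arrays in 9 of the 17, against 22.9% of all tested probe sets. BIP1 (LOC4328075), the gene of a BiP chaperone, read 3130 and 3316 on the BAP arrays, against 2073 and 2507 on the IAA arrays. It was called in this comparison and higher with BAP (log2 difference 0.50, SE 0.11, limma adjusted p = 0.0499). In limma the call was lost without IAA array 1 (adjusted p = 0.205), without either control array and without either BAP array. On the control arrays BIP1 read 3057 and 3061. In this list 0 of 17 genes were at least 2-fold lower on IAA array 1 than on IAA array 2.

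The remaining lists held 0 calls in limma in all 3 comparisons. Among 5 co-chaperone and stress-target genes, RAR1, a partner of HSP90 and SGT1 in plant immunity, read 1688 and 1521 on the IAA arrays and 1686 and 1851 on the BAP arrays, against 1287 and 1356 on the control arrays. Its log2 change was 0.28 with IAA (limma adjusted p = 0.369) and 0.42 with BAP (limma adjusted p = 0.228). HIP1 read 873 and 850.1 on the IAA arrays, against 679 and 655 on the control arrays (log2 change 0.36, SE 0.11, limma adjusted p = 0.261). It entered the list by its name alone, and whether it is a co-chaperone was not checked. The median log2 change of these 5 genes was 0.19 with IAA and 0.00 with BAP, and RAR1 and HIP1 with IAA and RAR1 with BAP had an unadjusted p under 0.05, with higher values. The 6 organelle chaperone and Clp protease genes had medians of -0.05 and -0.01, with 1 higher gene at an unadjusted p under 0.05 with IAA. The 13 antioxidant enzyme genes had medians of -0.05 and 0.01, with 1 lower gene at an unadjusted p under 0.05 with IAA. With BAP against IAA, 1 co-chaperone gene and 1 organelle gene had an unadjusted p under 0.05, both lower. In these 3 lists 0 genes were at least 2-fold lower on IAA array 1 than on IAA array 2.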

How the data were processed

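Per the labels, total RNA was hybridised to 1-colour Affymetrix rice arrays, and the deposited table gives linear intensities, 1 for each probe set on each array. How the authors scaled these intensities is not given in the sources used here. Of 57381 probe sets, 187 array controls were dropped. The remaining signals were analysed as log2(deposited intensity + 16) and quantile normalized, because array medians differed by up to 0.26. Probe sets with a mean under the 40th percentile (22878) were left out, and 34316 were tested with limma 3.58.1 in R 4.3.3 on all 6 arrays (empirical Bayes with an intensity trend, 3 residual degrees of freedom, two-sided, Benjamini-Hochberg adjusted). Printed intensities are the normalized values turned back to the linear scale.

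Genes were named through the platform's probe annotation and RefSeq's gene table (assembly ASM3414082v1, japonica), which was used for names and gene order only. Named with array values were called genes and, per comparison, the 5 highest and 5 lowest log2 changes; HSP81-2, HSP81-3, HSP101, HSP16.9A, HSP17.7, HSP17.9A, HSP18.8, HSFA1, HSFB1, HSFB2B and HSFB4B were added after their values were seen. BIPP2C and BIP names with 3-digit numbers were left out of the endoplasmic reticulum list. The brightest probe sets of 8 tested genes can match several transcripts: HSP18.0, HSP18.1, HSP18.6, HSP18.8, HSP26.2, HSP81-3, HSFA2A and HSFB4B. The genes and lists were chosen with earlier results of these data known.

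Replicate numbers are not said to mark a shared batch, so they stayed out of the main model, and a replicate block was run as another setting. Across all tested probe sets same-numbered arrays did not deviate together (correlations 0.0174, 0.0264 and -0.0595). Among the heat shock genes, however, array 1 lay below array 2 in all 3 groups in 14 of 41, against 13.0% of all tested probe sets. The p-values set each group difference against a spread between these samples. That spread was pooled over the 3 groups and drawn towards that of probe sets of like intensity. On simulated data for IAA against control, limma recovered 1 of 69 probe sets at a log2 change of 0.5, 25 of 65 at 1 and 56 of 66 at 2. It also called 9 of the 34116 unchanged probe sets. The simulated arrays varied independently and with the same spread, so low values shared by several genes on 1 array were not modelled.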

Additional observations from a re-analysis of the deposited data

How the results depend on the processing

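The count of genes called with IAA against control was 1 (HSP81-1). It was 0 with a pseudocount of 1, no filter, a filter at the 60th percentile, median centring, a prior without intensity trend, only the 2 groups compared, the replicate block, and the mean of a gene's probe sets. It was 5 with no rescaling (HSP81-1, HSFB2C, HSP24.1, HSFB2A and HSP16.0, all lower). Leaving out 1 array gave 0 to 4, with 4 only without IAA array 2. The HSP81-1 call held in 3 of 16 other settings, and elsewhere limma's adjusted p lay between 0.0501 and 0.264. The cause of these changes was not tested. With BAP against control the count was 0 in every setting run. With BAP against IAA it was 0, but 4 with no rescaling and 2 with the replicate block (HSP24.1 and HSP18.8), and leaving out 1 array gave 0 to 5. Over all tested probe sets the calls numbered 292 with IAA (68 to 502 across settings), 94 with BAP (13 to 210) and 769 between the hormones (223 to 974).

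HSFB2B with IAA against control was 0.14 without IAA array 1 and -1.30 without IAA array 2. HSFA2C with BAP against control was -0.21 by its other probe set. HSFA2A with BAP against IAA ranged from -0.000147 without IAA array 1 to 1.60 without IAA array 2, and was -0.15 by another probe set. In the other single-gene results 573 kept direction and side of the threshold, 19 newly passed and 25 no longer passed. Only a result called in the main setting could stop passing. These were HSP81-1 with IAA against control and BIP1 with BAP against IAA, so all 25 losses fell on them. Most of the 573 were results called in neither setting, which says little about how stable a call was. Where an arm was left with 1 array, that array was assumed to vary like the other groups. Dim genes are limited by signal near the filter limit of 9.94.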
